A study of Mus musculus with 3 samples.

Results

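Bone marrow cells enriched for the receptor Kit were compared between a library from steady-state mice and a library from mice given 1 challenge with Escherichia coli, by single-cell RNA sequencing. The cells were chosen as all cell barcodes of these 2 libraries with 500 or more unique molecular identifiers (UMIs, each standing for 1 captured RNA molecule), 300 or more genes and no more than 10% of UMIs from mitochondrial genes. This kept 17873 of the 26415 cells that pass the same limits in the 3 libraries of the series, 9223 unchallenged and 8650 challenged once. The mice of both groups were C57BL/6, the labels list no other allele or agent, and the challenged library carries the time 24 h. The labels do not say from what moment the hours count, by which route or dose the bacteria were given, or whether animals were pooled. They give bone marrow neutrophil as the source although the enrichment was for Kit, and no stated sort excluded any other cell type. Each group had 1 library, so every difference below is between single libraries. No test across samples could be made, and all intervals are 95% intervals that cover counting error only.

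Infection with Gram-negative bacteria is known to switch the marrow from steady to emergency granulopoiesis, in which endotoxin and cytokines such as G-CSF drive stem and progenitor cells to divide and release neutrophils to the blood ahead of schedule. Neutrophils are made in waves: progenitors first fill azurophil granules with Elane, Mpo and Prtn3, later stages fill specific granules with Camp, Ltf, Lcn2 and Ngp, and mature cells take up Cxcr2 and leave the marrow. Infection also raises interferons and interleukins, which act on cells of every lineage through STAT factors. Chaperones of the endoplasmic reticulum fold the proteins that cells secrete or store in granules, and their genes are raised together when that compartment is under load.

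The promoters of 5 genes are shown because these genes carry the responses described below, the chaperone response of neutrophil progenitors (Hspa5, Hsp90b1, Creld2) and the interferon response of immature neutrophils (Isg15, Bst2). Each window is RefSeq sequence of GRCm38.p6, 300 bases from 250 before to 50 after the transcript start, written 5′ to 3′ on the gene's own strand. Capitals mark matches on either strand to the endoplasmic reticulum stress response element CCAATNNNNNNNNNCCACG in the first 3 windows and to the interferon-stimulated response element TTTCNNTTTC in the other 2. Overlapping matches run together.
Hspa5 chr2:34771840-34772139, plus strand: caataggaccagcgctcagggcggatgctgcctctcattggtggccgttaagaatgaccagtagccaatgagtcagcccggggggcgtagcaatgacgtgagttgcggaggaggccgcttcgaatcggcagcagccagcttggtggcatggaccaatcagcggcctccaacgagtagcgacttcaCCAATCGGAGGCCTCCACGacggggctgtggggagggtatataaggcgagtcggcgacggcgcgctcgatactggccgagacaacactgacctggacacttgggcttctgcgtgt
Hsp90b1 chr10:86705395-86705694, minus strand: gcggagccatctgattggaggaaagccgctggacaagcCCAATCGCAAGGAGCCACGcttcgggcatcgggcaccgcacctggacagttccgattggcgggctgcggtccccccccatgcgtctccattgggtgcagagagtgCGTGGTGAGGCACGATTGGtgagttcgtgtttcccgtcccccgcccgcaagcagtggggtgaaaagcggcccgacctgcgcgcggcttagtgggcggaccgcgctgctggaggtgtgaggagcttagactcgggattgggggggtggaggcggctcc
Creld2 chr15:88819396-88819695, plus strand: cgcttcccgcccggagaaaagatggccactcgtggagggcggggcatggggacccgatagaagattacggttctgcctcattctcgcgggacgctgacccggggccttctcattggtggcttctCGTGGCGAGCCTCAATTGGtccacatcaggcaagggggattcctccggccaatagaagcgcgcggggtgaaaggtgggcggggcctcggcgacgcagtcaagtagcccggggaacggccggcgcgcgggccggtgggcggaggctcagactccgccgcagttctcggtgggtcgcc
Isg15 chr4:156200769-156201068, minus strand: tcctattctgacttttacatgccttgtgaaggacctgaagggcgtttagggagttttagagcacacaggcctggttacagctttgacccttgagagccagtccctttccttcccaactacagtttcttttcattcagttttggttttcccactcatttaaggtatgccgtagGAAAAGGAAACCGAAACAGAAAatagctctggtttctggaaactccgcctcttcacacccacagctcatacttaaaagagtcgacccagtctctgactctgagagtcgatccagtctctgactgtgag
Bst2 chr8:71537423-71537722, minus strand: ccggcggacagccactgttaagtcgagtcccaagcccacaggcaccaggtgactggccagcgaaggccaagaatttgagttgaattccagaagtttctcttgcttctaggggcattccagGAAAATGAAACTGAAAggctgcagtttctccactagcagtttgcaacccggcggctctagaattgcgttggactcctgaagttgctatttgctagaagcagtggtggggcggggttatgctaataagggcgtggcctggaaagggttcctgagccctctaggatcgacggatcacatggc

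In Hspa5 the match begins 65 bases before the start, in Creld2 126 bases before it, and Hsp90b1 holds 2 matches with the nearer at 107 bases. Of the 22 endoplasmic reticulum chaperone genes listed, 20 had a window and 7 of these held the element (Hspa5, Hsp90b1, Calr, Canx, Pdia6, Dnajc3 and Creld2), against 0.119% of all 32851 windows and 0.155% of genes measured in these cells. The interferon element was found in 13 of 22 windows of the interferon response list, in 8 of 8 windows of interferon-inducible GTPases and in 3 of 14 windows of MHC class I genes, against 3.44% of all windows and 4.10% of measured genes. A match describes letters in the window and not a bound site.

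The unchallenged library held 119646078 UMIs over 9684 barcodes and the challenged once library 135079828 over 9060. Kept cells had medians of 11196 and 13477 UMIs, 2261 and 2943 genes, and 2.06% and 2.58% mitochondrial UMIs. The libraries shared 115 barcodes. For ratios, every cell with at least 2000 UMIs was drawn down to 2000, which left 8812 and 7972 cells and left out 411 and 678 shallower ones. Levels are counts per 1000000 UMIs (CPM) of the cells named, and values given as X against Y are the challenged once library against the unchallenged one. Each of the 14 cell type marker lists was detected in both libraries, with 1 megakaryocyte marker at 0 in the challenged once library.

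The make-up of the Kit-enriched cells differed first of all in the neutrophil line. How far the enrichment itself differed between the 2 libraries was not tested. Immature neutrophil-like cells were 41.3% (40.3 to 42.4) of the 8796 unchallenged cells left after calling doublets and 12.9% (12.2 to 13.7) of the 8356 challenged once cells. Most of this class carried specific granule transcripts as its leading genes (clusters 0 and 4). It also held later cells, clusters 9 and 12, led by Mmp9 of gelatinase granules and by Mmp8, which is listed here with specific granules. These 2 clusters had 615 and 420 unchallenged and 195 and 159 challenged once cells. The 13 mature neutrophil markers summed to 17113 and 13733 CPM in cluster 12, and to 372 and 473 CPM in cluster 4. Neutrophil progenitor-like cells were 11.7% (11.1 to 12.4) and 16.4% (15.6 to 17.2), and their 2 clusters differed in direction. Cluster 1, led by the azurophil granule genes Elane and Ctsg, held 599 unchallenged and 1098 challenged once cells. Cluster 11, led by Fcnb, held 433 and 272, and its unchallenged cells had more immature neutrophil marker signal (74567 CPM summed over 14 markers) than progenitor marker signal (21902 CPM over 12). Cells of a mature neutrophil-like cluster, which does not take in those of cluster 12, numbered 5 and 289, which is 0.0568% (0.0185 to 0.133) and 3.46% (3.08 to 3.87). The 3 classes together were 53.1% (52.1 to 54.2) and 32.8% (31.8 to 33.8). Granule genes set the line between these stages, and their levels were not the same in the libraries. When cells were clustered without specific granule, gelatinase and S100 genes, the challenged once minus unchallenged share was -29.8 percentage points for immature and 5.97 points for progenitor-like cells.

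The remaining share was taken up by other named classes and by cells that could not be named. Cells resembling haematopoietic stem and progenitor cells (HSPC-like) were 8.61% (8.03 to 9.21) unchallenged and 13.6% (12.9 to 14.3) after 1 challenge. Ly6a and Ifitm1 are among the 16 markers that name this class, and both were higher after challenge in some other classes too. Ly6a was also not among the genes kept out of the clustering. The part of these genes in the share was not tested. B lineage-like cells were 14.0% and 17.7%, erythroid-like cells 7.46% and 8.89%, monocyte-like cells 6.21% and 7.44%, megakaryocyte-like cells 3.55% and 5.24%, and basophil or mast-like cells 1.46% and 2.26%. Outside the neutrophil classes, HSPC-like cells were 18.4% (17.2 to 19.6) and 20.2% (19.2 to 21.3), while B lineage-like cells were 29.9% and 26.4%, erythroid-like cells 15.9% and 13.2% and monocyte-like cells 13.2% and 11.1%. On that base the 3 latter classes were thus lower, not higher, after the challenge. Unnamed cells, clusters 7 and 19, were 3.41% (3.04 to 3.81) and 9.37% (8.75 to 10.0) of all, and 7.27% and 13.9% outside the neutrophil classes. Of these, cluster 7, led by Prg2, Ccl9 and Fabp5, held 244 and 684 cells. The 12 neutrophil progenitor markers summed to 12644 and 11247 CPM in its unchallenged and challenged once cells, the largest of its marker sums, beside 18484 and 15350 CPM in monocyte-like cells. The cluster is nonetheless part of the base outside the neutrophil classes. Shares follow enrichment for Kit and are not those of whole marrow. The megakaryocyte-like difference of 1.69 points was -0.0323 when all variable genes were used for clustering.

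**Figure D1:**
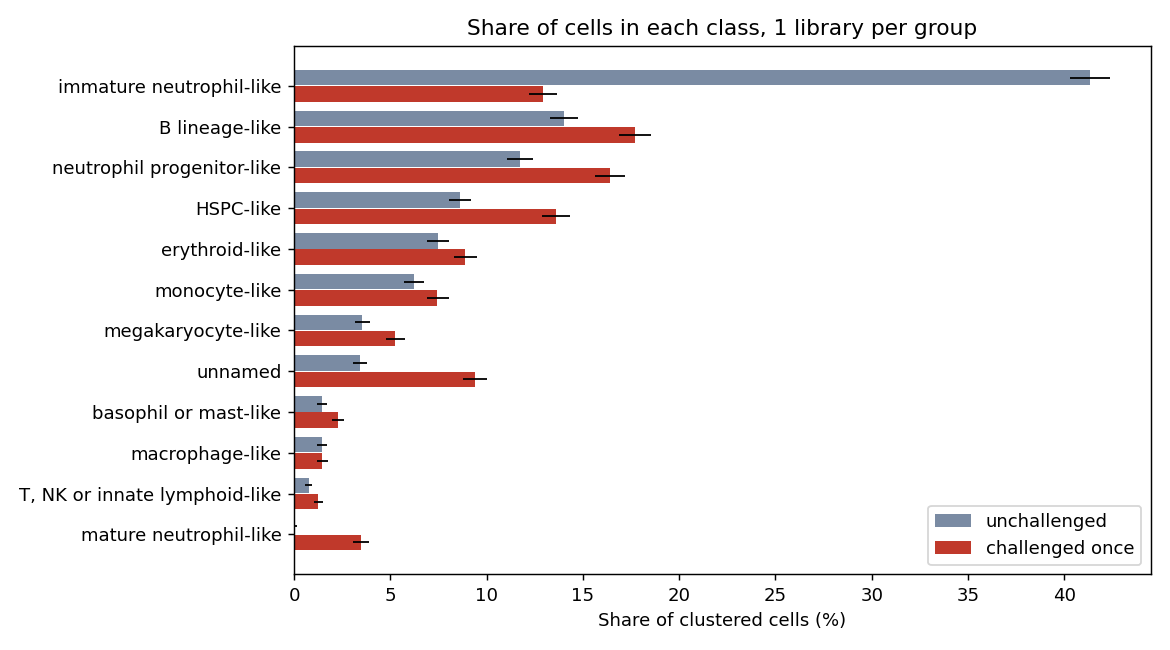
Percent of clustered cells in each class in the unchallenged and the challenged once library, with exact 95% intervals of counting error; 1 library each. Immature neutrophil-like cells stand at 41.3% and 12.9%, and mature neutrophil-like cells at 0.0568% and 3.46%.

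The mature neutrophil-like cluster came almost wholly from the challenged once library, so it is described within that library, and a cluster of 1 library may be that library and not a cell type. Its cells were shallow, with a median of 2407 UMIs, and 180 of the 289 entered the drawn data. Their most abundant response transcript was Wfdc17, a secreted protease inhibitor family gene, at 30431 CPM and detected in 100% of the cells, against 80.4 CPM in immature neutrophil-like cells of the same library. Ifitm1, an interferon-induced membrane protein gene, was at 20217 against 93.1 CPM in the same comparison. Inflammatory mediators followed this pattern: Ccl6, a chemokine gene, was at 2728 against 6.86 CPM, Cxcl2, a chemokine that draws neutrophils, at 1814 against 8.82 CPM, and Il1b, the interleukin-1 beta gene, at 1133 against 1.47 CPM. Receptors of the mature cell were also higher there, Cxcr2 at 736 against 59.8 CPM and Csf3r, which encodes the receptor of G-CSF, at 658 against 63.2 CPM. Transcripts of specific granules were lower, Camp at 600.0 against 48294 CPM and Ltf at 111 against 7647 CPM, whereas S100a9, one chain of calprotectin, was level at 143772 against 145312 CPM. These are the genes that define the cluster and are given as its description.

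Over all kept cells, 322 of 9732 measured genes (3.31%) were 1.5-fold or more higher after 1 challenge and 157 (1.61%) were 1.5-fold or more lower, on the log2 scale with 10 CPM added to both values. At 2-fold the numbers were 31 (0.319%) and 42 (0.432%). The split between higher and lower depended on the scaling. Specific granule genes held 7.76% of the unchallenged UMIs and 2.24% of those after challenge, and S100 genes 17.3% and 6.47%. Median-of-ratios scaling used a shift of 0.29 on the log2 scale, the median ratio of CPM without the added 10, and then 63 genes were higher and 299 lower. For gene lists the shift was subtracted from the ratio of CPM + 10. This moves low genes by more than scaling before the 10 is added. List counts after this scaling may thus not be strictly on the same scale as counts over all genes. With the granule and S100 genes left out of the totals, an alternative chosen after seeing the data, they were 64 and 295. When both libraries were given the same mix of classes, 45 genes (0.462%) were higher and 16 (0.164%) lower, far fewer than with the cells as found. This mix held only the 9 classes with at least 50 drawn cells in each library. It left out mature neutrophil-like, macrophage-like and unnamed cells and called doublets. The part of their removal in the lower numbers was not tested. Without the cells of the neutrophil classes, 32 of 8865 genes (0.361%) were higher and 47 (0.53%) lower.

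**Figure D2:**
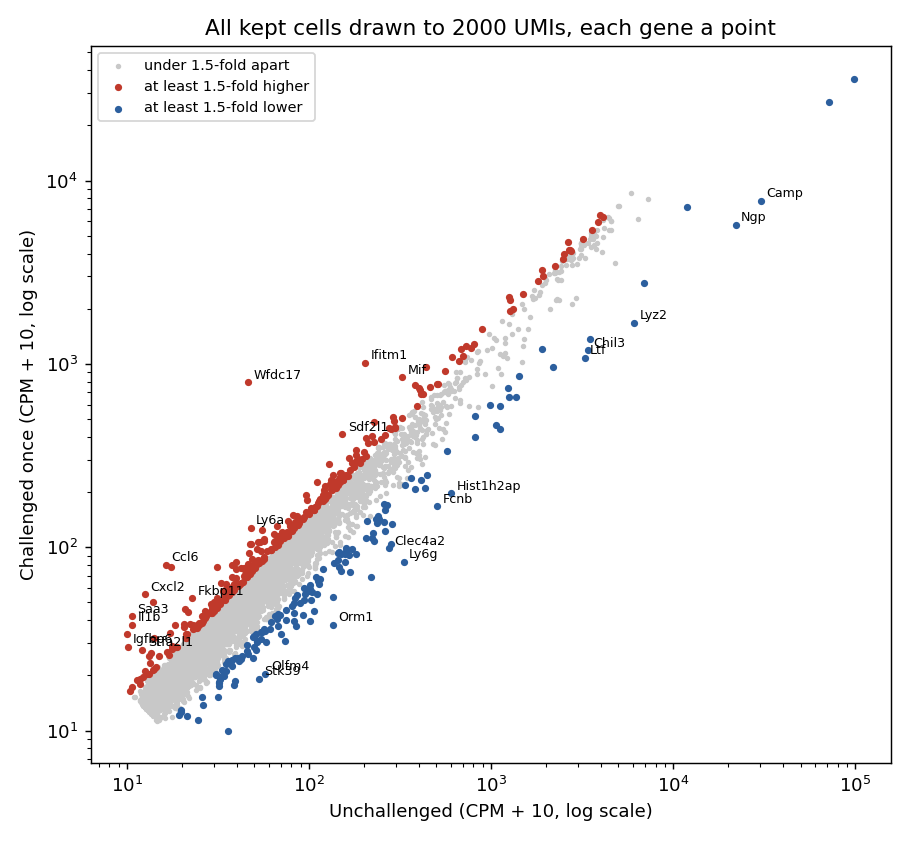
Level of each measured gene over all kept cells, unchallenged on the x axis and challenged once on the y axis, as CPM + 10 on log axes; colours mark genes 1.5-fold or more apart, and each library is 1 sample. Wfdc17 lies furthest above the diagonal, at a log2 ratio of 4.11, and the points furthest below it include Ly6g at -1.99 and Camp at -1.97.

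The genes furthest above the unchallenged library fell into a group held by mature neutrophil-like cells and a group found more widely. Wfdc17 (chr11:83703991-83706268, GRCm38) was at 785 CPM against 36.1, 21.7-fold (20.1 to 23.6) higher, and 87.6% of its UMIs in the challenged once library came from the mature neutrophil-like cluster. Il1b, at 27.8 CPM against 0.681, Cxcl2, at 45.5 CPM against 2.50, and Ccl6, at 70.2 CPM against 6.30, had 92.1%, 89.9% and 87.7% of their UMIs there. The same held for Igfbp6 (94.3%), which encodes a binding protein of insulin-like growth factors, and for Stfa2l1 (86.2%), a stefin gene. Most UMIs of these 6 genes thus came from a cluster that held 5 unchallenged cells. Outside that cluster Wfdc17 was at 33.5 CPM against 4.23 in B lineage-like cells and at 304 CPM against 355 in HSPC-like cells, where 31.3% against 31.7% of cells held a UMI. Other genes were not held by that cluster. Ly6a (chr15:74994877-74998031), which encodes the stem cell antigen Sca-1, was at 118 CPM against 37.8, 3.12-fold (2.85 to 3.41) higher, with 0.798% of its UMIs in the mature cluster. Saa3 (chr7:46711998-46715700), an acute phase serum amyloid gene, was at 32.1 CPM against 0.681 with 7.81% there. Ifitm1 (chr7:140967221-140969825) lay between, at 1007 CPM against 193 with 45.3%. Mif, a cytokine gene, was at 836 CPM against 316, and the endoplasmic reticulum genes Sdf2l1 and Fkbp11 were at 403 CPM against 142 and 42.7 CPM against 12.8.

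At an equal mix of classes the largest log2 ratios among the genes named here were 1.75 for Saa3, 1.15 for Ifitm3, 1.04 for Ifi27l2a, 0.97 for Sdf2l1 and 0.95 for Ly6a. They were followed by Irf7 at 0.91, Cd74 at 0.90, Creld2 at 0.90 and Bst2 at 0.84. Of these, Ifi27l2a, Irf7 and Bst2 belong to the interferon response list, and Sdf2l1 and Creld2 to the endoplasmic reticulum chaperones. Kit itself was at 48.6 CPM against 32.3 over all cells (log2 ratio 0.47), but at 68.3 CPM against 91.0 within HSPC-like cells. It was at 35.5 CPM against 25.4 in neutrophil progenitor-like cells and at 13.7 CPM against 11.7 in immature neutrophil-like cells, the class that filled much of the Kit-enriched unchallenged library.

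Most of the genes furthest below the unchallenged library are known from neutrophils and their granules. Ly6g (chr15:75155240-75159126), the surface antigen used to identify mouse neutrophils, was at 73.3 CPM against 321, 4.38-fold lower (4.12 to 4.67). Camp (chr9:109847379-109849617), the gene of the antimicrobial peptide CRAMP, was at 7733 CPM against 30300.0, 3.92-fold lower (3.89 to 3.94), and was detected in 48.6% against 97.2% of cells. Leaving aside immunoglobulin, ribosomal, mitochondrial and predicted genes, the other genes among the 12 lowest were Ngp, Ltf and Olfm4 of specific granules, Fcnb (ficolin B), Chil3 (a chitinase-like protein), Lyz2 (lysozyme), Orm1 (an acute phase glycoprotein), Clec4a2, Stk39 and Hist1h2ap, with log2 ratios from -1.95 to -1.47. AA467197, left out with the predicted genes for its clone-like name, was as far apart as these, at 59.3 CPM against 210.2, a log2 ratio of -1.67. Of 16 specific granule genes measured, 14 were 1.5-fold or more lower and none higher, with a median log2 ratio of -1.43 against 0.17 over all measured genes. Of 7 NADPH oxidase genes, which make the oxidative burst, 4 were lower and none higher, with a median of -0.76. At an equal class mix these medians were -0.21 and -0.06, with 2 of 16 specific granule genes lower. Among the 12 lowest genes, the log2 ratio at an equal class mix was -0.57 for Camp, -0.87 for Ly6g and -0.01 for Ltf, but -1.64 for the histone gene Hist1h2ap, whose ratio with the cells as found was -1.61. Hist1h2ap was at 187 CPM against 593 over all cells and at 104 CPM against 408 in progenitor-like cells. It has near-identical histone copies and is uncertain as a single gene.

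Within the neutrophil line, the ratios of specific granule transcripts were not alike in the 2 larger classes. In immature neutrophil-like cells Camp was at 48294 CPM against 62226, Ltf at 7647 CPM against 7214 and Lcn2 at 18026 CPM against 15106. None of 15 specific granule genes was 1.5-fold apart there (median -0.05), beside 233 of 4812 measured genes higher (4.84%) and 32 lower (0.665%) in this class. In neutrophil progenitor-like cells 11 of 12 were lower (median -1.01), beside 368 of 4112 genes higher (8.95%) and 102 lower (2.48%), and Camp was at 5970.0 CPM against 19246, Lyz2 at 807 CPM against 2734 and Fcnb at 364 CPM against 1317. Clusters 1 and 11 of the class, which were in different proportions in the 2 libraries, were also compared singly. Within cluster 1, where 6.48% of genes were higher and 2.49% lower, 7 of 10 granule genes were lower (median -1.25), with Camp at 513 CPM against 2107. Camp in cluster 1 was below its level in B lineage-like cells, given below, in the unchallenged library and above it in the challenged once library. Within cluster 11, where 4.85% were higher and 2.09% lower, 4 of 12 were lower (median -0.27), with Camp at 28039 CPM against 42732. Over the class, azurophil granule genes had a median of 0.01 with none of 9 at 1.5-fold: Elane, the elastase gene, was at 9317 CPM against 13182 and Prtn3, the proteinase 3 gene, at 7406 CPM against 5847.

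The same specific granule transcripts were lower outside the neutrophil line. Camp was at 398 CPM against 3366 in B lineage-like cells and was detected in 52.5% against 98.6% of them. It was at 166 CPM against 1487 in erythroid-like cells, 195 CPM against 1847 in megakaryocyte-like cells, 224 CPM against 1661 in monocyte-like cells and 202 CPM against 1979 in HSPC-like cells. Specific granule genes were lower in 9 of 9 measured in B lineage-like cells (median -2.31), 7 of 7 in erythroid-like cells (median -2.51) and 8 of 8 in HSPC-like cells (median -2.48). Of the members counted, 1, 3 and 2 reached the minimum of 100 UMIs for a measured gene only through the unchallenged library, where they were high. Beside these counts, 1.27%, 1.47% and 1.79% of all measured genes were 1.5-fold or more lower in those 3 classes. S100a9 did likewise, at 1433 CPM against 7659 in B lineage-like and 709 CPM against 4466 in HSPC-like cells. Elane, of the earlier stage, was less far apart, at 233 CPM against 404 in B lineage-like and 90.0 CPM against 176 in erythroid-like cells. The part of free RNA in these levels, in progenitor-like cells as in the others, was not tested.

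**Figure D3:**
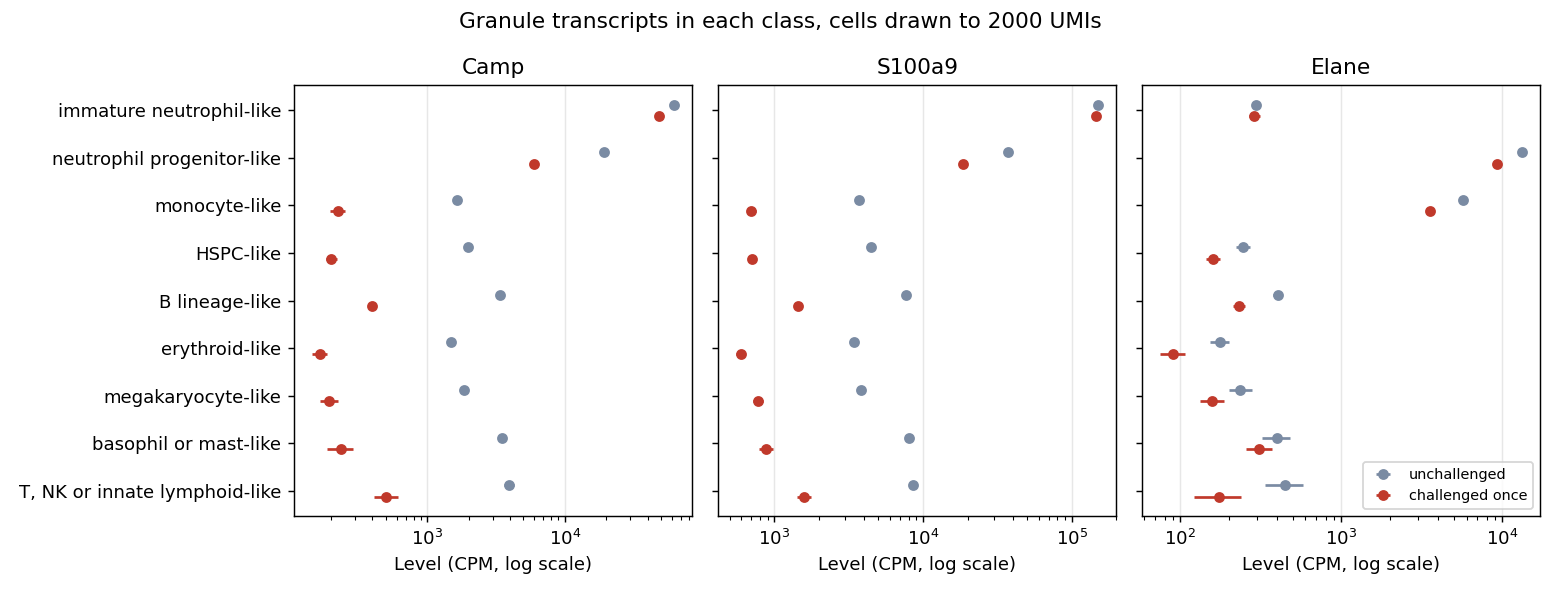
Levels in CPM, on log axes, of the granule transcripts Camp and Elane and of S100a9 by class in the unchallenged and the challenged once library; points are single libraries and bars exact 95% counting intervals. Camp is lower after challenge in every class plotted, by least in immature neutrophil-like cells, at 48294 CPM against 62226.

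Immature neutrophil-like cells, fewer after the challenge, had higher levels of interferon response genes. Of 17 interferon response genes measured in them, 15 were 1.5-fold or more higher and none lower, with a median log2 ratio of 1.02 against 0.13 over all genes of the class. Of these 15, 2 reached the minimum of 100 UMIs only through the challenged once library. Over all genes measured in the class, 4.84% were higher and 0.665% lower. Median-of-ratios scaling, which left 87 genes higher and 64 lower in this class, left 14 of 17 higher with a median of 0.84. Ifi27l2a (chr12:103442167-103443680), an interferon-induced membrane protein gene, was at 1137 CPM against 334, 3.41-fold (3.22 to 3.61) higher. Bst2, which encodes the virus-tethering protein tetherin and whose promoter is shown above, was at 114 CPM against 34.0, 3.35-fold (2.78 to 4.02) higher. Isg15, a ubiquitin-like modifier with 3 overlapping matches in its promoter, was at 95.6 CPM against 55.0, 1.74-fold (1.46 to 2.07) higher, and Irf7, a transcription factor that amplifies interferon output, at 54.4 CPM against 20.3. Further members, chosen after their values were seen, were Ifit1 at 49.5 CPM against 8.22, Oasl2 at 83.8 CPM against 19.8 and Zbp1 at 53.4 CPM against 13.8. Oas1a was among the members less than 1.5-fold apart, at 30.4 CPM against 27.7.

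Some related genes were higher as well. Ifitm3 (chr7:141009586-141010770), which blocks virus entry, was at 3188 CPM against 1261, Ifitm2 at 837 CPM against 445 and Ifitm1 at 93.1 CPM against 18.9, whereas Ifitm6, abundant in myeloid cells, was at 2401 CPM against 2430.3. Ly6e, an interferon-responsive surface protein gene, was at 333 CPM against 92.6, 3.59-fold higher. The GTPase Irgm1 was at 28.9 CPM against 9.61. Of 13 MHC class I genes, 6 were higher and none lower (median 0.56), among them H2-K1 at 399.5 CPM against 218, but 2 after median-of-ratios scaling (median 0.39). Of 6 STAT target genes, 3 were higher and none lower, Pim1 at 37.3 CPM against 19.2, Mcl1 at 101 CPM against 52.5 and Stat3 at 66.7 CPM against 39.6, and 1 after that scaling. Wfdc17 was at 80.4 CPM against 1.53 in the class, and at 412 CPM against 3.73 in its cluster 12. Over the class, Wfdc17 and Irgm1 reached the minimum of 100 UMIs only through the challenged once library.

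The clusters of immature cells were also looked at singly. In cluster 0, led by Ltf, Inhba and Cd177, where 9.39% of genes were higher and 1.09% lower, 8 of 9 interferon response genes were higher, 3 of them measured only through the challenged once library, and Ifi27l2a was at 947 CPM against 205. In cluster 4, where 4.53% of genes were higher and 2.12% lower, Ifi27l2a was at 414 CPM against 54.8 and Bst2, which reached the minimum only through the challenged once library, at 107 CPM against 25.3. In cluster 9, led by Mmp9, Ifi27l2a was at 1934 CPM against 515 and 2 of 3 were higher, beside 11.1% of its genes higher and 3.33% lower. In cluster 12, which had Retnlg and Mmp9 of later stages among its top genes, 1 of 4 was higher (median 0.13) beside 6.11% of its genes higher and 5.99% lower. Isg15 was at 117 CPM against 150.5 there. Unchallenged cells of cluster 12 already had Ifi27l2a at 1289.8 CPM, above the challenged level in cluster 0. The drawn cells of cluster 12 were few, 420 unchallenged and 159 challenged before drawing, and whether its difference from the other clusters exceeds the spread between libraries was not tested.

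Some interferon response genes were higher in other classes too, and how the classes differ was not tested. In neutrophil progenitor-like cells, where 8.95% of all genes were higher, 2 of 5 measured members were higher, among them Bst2 at 224 CPM against 72.3. In monocyte-like cells, where 2.97% of all genes were higher, 1 of 5 was. In HSPC-like cells, where 94 of 4243 genes (2.22%) were higher, 2 of 19 were higher (median 0.09 against 0.01 over all genes), Irf7 at 149.5 CPM against 93.6 and Ifi27l2a at 405 CPM against 266, while Isg15 was at 87.8 CPM against 117. In B lineage-like cells, where 83 of 4974 genes (1.67%) were higher, 7 of 19 were higher, 1 of them measured only through the challenged once library, and none lower (median 0.47 against 0.00). In these cells Irf7 was at 127 CPM against 46.1, 2.76-fold (2.18 to 3.51) higher, and Bst2 at 336 CPM against 191. B lineage-like cells also had 6 of 16 MHC class I genes higher and none lower. Examples were H2-K1 at 2244 CPM against 1414 and H2-Q7 at 446 CPM against 227, and the GTPase gene Irgm1 was at 95.5 CPM against 56.0. Erythroid-like cells, where 19 of 2999 genes (0.634%) were higher, had 1 of 5 interferon response and 4 of 9 MHC class I genes higher, with H2-Q7 at 168 CPM against 80.6, and Irf7 at 93.4 CPM against 47.4. Isg15 was thus above the unchallenged level in immature neutrophil-like cells, near it in B lineage-like cells (111 CPM against 98.3) and below it in erythroid-like cells (69.0 CPM against 90.0).

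Neutrophil progenitor-like cells were marked by genes of protein folding. Of 21 endoplasmic reticulum chaperone genes, 14 were 1.5-fold or more higher, 1 of them measured only through the challenged once library, and none lower, with a median of 0.83 against 0.16 over all genes. Over all genes measured in this class, 8.95% were higher and 2.48% lower. Median-of-ratios scaling, which left 134 genes higher and 209 lower in this class, left 11 of 21 chaperone genes higher with a median of 0.63. Hspa5, which encodes the master chaperone BiP, was at 1080.5 CPM against 417, 2.59-fold (2.40 to 2.80) higher. Creld2, a disulphide isomerase-like gene of the stress response, was at 226 CPM against 69.8, 3.24-fold (2.70 to 3.92) higher, Hsp90b1 (GRP94), chosen after its values were seen, at 717 CPM against 307, and Calr, the lectin chaperone calreticulin, at 2030.4 CPM against 880.4. Sdf2l1, a partner of BiP, was at 1157 CPM against 469. The members near their unchallenged level, likewise chosen after seeing them, were the isomerase Pdia3 at 298 CPM against 320.3, the co-chaperone Dnajb9 at 55.6 CPM against 52.7 and the stress response factor Xbp1 at 157 CPM against 143. Hspa5, Hsp90b1, Creld2 and Calr hold the stress element in their promoters.

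The chaperone difference was present in each of the 2 clusters of the class. In cluster 1, 11 of 21 were higher (median 0.67), with Hspa5 at 1217 CPM against 574, and in cluster 11, 9 of 14 (median 0.74), with Hspa5 at 529.5 CPM against 203. In immature neutrophil-like cells 9 of 20 were higher (median 0.50) and Hspa5 was at 196 CPM against 85.5. Of all genes, 6.48% were higher in cluster 1, 4.85% in cluster 11 and 4.84% in immature neutrophil-like cells. In monocyte-like cells, where 76 of 2556 genes (2.97%) were higher and 51 (2%) lower, 4 of 18 were higher (median 0.38 against 0.07), with Hspa5 at 894 CPM against 530.3. In HSPC-like cells none of 20 was higher and 1 was lower (median 0.16), in B lineage-like cells none of 20 was 1.5-fold apart (median 0.04), and in erythroid-like cells none of 16 (median -0.08). Hspa5 was at 211 CPM against 205 in HSPC-like and 245 CPM against 251 in B lineage-like cells. Whether the classes differ in this response beyond the spread between libraries was not tested.

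**Figure D4:**
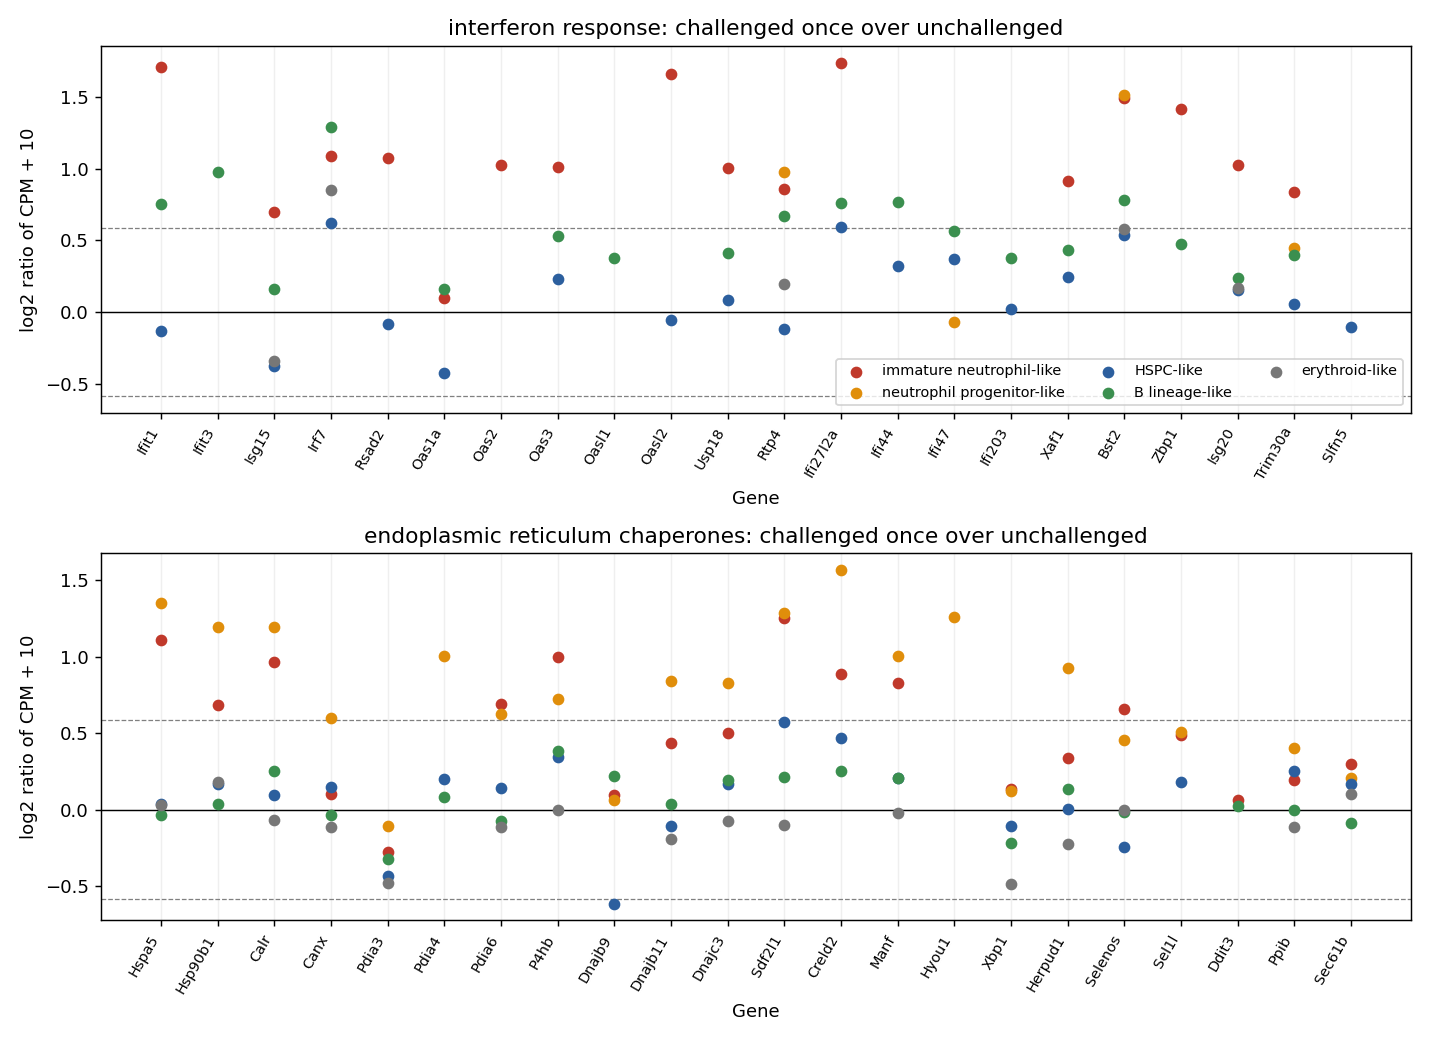
Log2 ratios of single genes of the interferon response and endoplasmic reticulum chaperone lists by class, challenged once over unchallenged with 10 CPM added; dashed lines mark 1.5-fold, 1 interferon response gene is not shown, and each class has 1 library per group. Interferon genes lie highest in immature neutrophil-like cells (median 1.02) and chaperone genes highest in neutrophil progenitor-like cells (median 0.83).

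Some genes of cytosolic folding, ribosome biogenesis and antioxidant defence were higher in progenitor-like cells as well. Of all 4112 genes measured in the class, 8.95% were higher and 2.48% lower. Of 10 cytosolic heat shock genes, 6 were higher and none lower (median 0.70), with the chaperone genes Hsp90aa1 at 1407 CPM against 653 and Hsph1 at 77.5 CPM against 25.9 and the mitochondrial folding pair Hspd1 and Hspe1 at 413 CPM against 172 and 829.6 CPM against 350.1. Of 19 genes of Myc and ribosome biogenesis, 9 were higher and none lower (median 0.54), with Srm, a polyamine synthesis enzyme, at 272 CPM against 131, Npm1, a nucleolar protein, at 1462 CPM against 759.8 and Nhp2, a snoRNP protein, at 413 CPM against 211, while Myc itself was at 39.5 CPM against 39.1. After median-of-ratios scaling, 4 of the heat shock and 7 of the Myc and ribosome genes were still higher. Of 15 antioxidant genes, 7 were higher and 1 lower, among them the peroxiredoxin gene Prdx1 at 479 CPM against 232, and 3 after that scaling. Of 22 proteasome genes, 3 were higher and none lower (median 0.47), not far from the share over all genes of the class, and none was higher after that scaling.

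Some single genes of the class were further apart. Saa3 had 2 UMIs in the drawn unchallenged progenitor-like cells and 304 in the challenged ones, at 111 CPM against 0.977, and was detected in 15.3% against 0.195% of cells. It was at 106 CPM against 0.845 in cluster 1 and at 133 CPM against 1.16 in cluster 11, and in monocyte-like cells it was at 39.5 CPM against 2.76. In B lineage-like cells, drawn to the same 2000 UMIs per cell, it was detected in 1.43% against 0.188% of cells. Ifitm3 was at 696 CPM against 156, 4.45-fold (3.95 to 5.03) higher, and Ifitm1 at 141 CPM against 16.1. In progenitor-like cells Saa3 and Ifitm1 reached the minimum of 100 UMIs only through the challenged once library. Mif was at 1258 CPM against 416, 3.02-fold (2.80 to 3.26) higher. The regulators of granulocyte fate were closer to their unchallenged level: Cebpb, the factor of emergency granulopoiesis, was at 279 CPM against 263, Cebpe, the factor of specific granules, at 447 CPM against 533, Gfi1, a repressor that favours neutrophils, at 46.8 CPM against 48.8, and Csf3r at 45.0 CPM against 49.8. Over all 15 granulocyte and monocyte regulators measured in all kept cells, none was 1.5-fold or more higher and 2 were lower, among them Cebpe. Of all genes measured in all kept cells, 3.31% were higher and 1.61% lower.

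HSPC-like cells held 2 clusters with different leading genes: cluster 3, with 626 and 933 cells, and cluster 14, with 131 and 202, which had the lymphoid genes Ly6d, Dntt and Il7r among its top 10. Some cell cycle genes, which were kept out of the clustering, were higher in the class. Of 25 S phase genes, 6 were higher and none lower (median 0.43 against 0.01 over all genes), and of 25 G2 and M phase genes 7 were higher and none lower (median 0.42), or 4 after median-of-ratios scaling. In each list 1 of the higher genes was measured only through the challenged once library. Over all genes measured in the class, 2.22% were higher and 1.79% lower. In cluster 3 alone, where 3.18% of genes were higher and 2.6% lower, the numbers were 7 of 25 and 8 of 24. Top2a (chr11:98992943-99024189), the topoisomerase of dividing cells, was at 271 CPM against 137, 1.98-fold (1.69 to 2.33) higher, and Tk1, the S phase thymidine kinase, at 63.0 CPM against 25.9. Both were chosen after their values were seen, and Tk1 is the S phase gene measured only through the challenged once library. The G2 and M phase median was 0.09 in neutrophil progenitor-like cells, 0.22 in immature neutrophil-like cells and 0.15 in monocyte-like cells. It was -0.36 in B lineage-like cells, where 3 of 33 were lower beside 1.27% of all genes, and -0.33 in erythroid-like cells, where none of 28 was 1.5-fold apart.

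Stem cell identity genes in HSPC-like cells had a median of -0.38, with 1 of 14 higher and 2 lower. Beside these, 2.22% of all genes measured in the class were higher and 1.79% lower. The higher one was Ly6a, itself a marker that names the class, at 469 CPM against 262, 1.79-fold (1.60 to 2.02) higher. The lower ones were Angpt1 (chr15:42424723-42676977), a niche signalling ligand, at 51.9 CPM against 105, 2.02-fold lower (1.58 to 2.59), and Ctla2a at 407 CPM against 723. Cd34 was at 244 CPM against 349, the stem cell factor Hlf at 72.8 CPM against 87.0, and the myeloid genes Mpo and Elane at 251 CPM against 427 and 160.2 CPM against 246. In cluster 3 alone the stem cell identity median was -0.42.

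Cd74 was higher in both clusters of the class, while the sum of B lineage markers was higher in the smaller cluster and lower in the larger one. Cd74, the invariant chain of MHC class II, was at 155 CPM against 43.2, 3.60-fold (2.75 to 4.76) higher, in HSPC-like cells, at 122 CPM against 43.4 in cluster 3 and at 309 CPM against 42.0 in cluster 14. The early B cell genes Ebf1, Cd79a and Vpreb3 were at 138 CPM against 49.8, 76.3 CPM against 27.2 and 84.7 CPM against 31.9 in the class. The 13 B lineage markers summed to 736 against 502 CPM in HSPC-like cells, to 192 against 270 CPM in cluster 3 and to 3223 against 1603 CPM in cluster 14, where Ebf1 was at 733 CPM against 225. In the class, 2 of the 13 markers were at 0 in each library. The part of cells on the way to the B lineage in the Cd74 level was not tested. Within cluster 3, where the B lineage sum was lower after challenge, Cd74 was 2.80-fold (2.07 to 3.84) higher. In cluster 14 Cd74 reached the minimum of 100 UMIs only through the challenged once library.

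**Figure D5:**
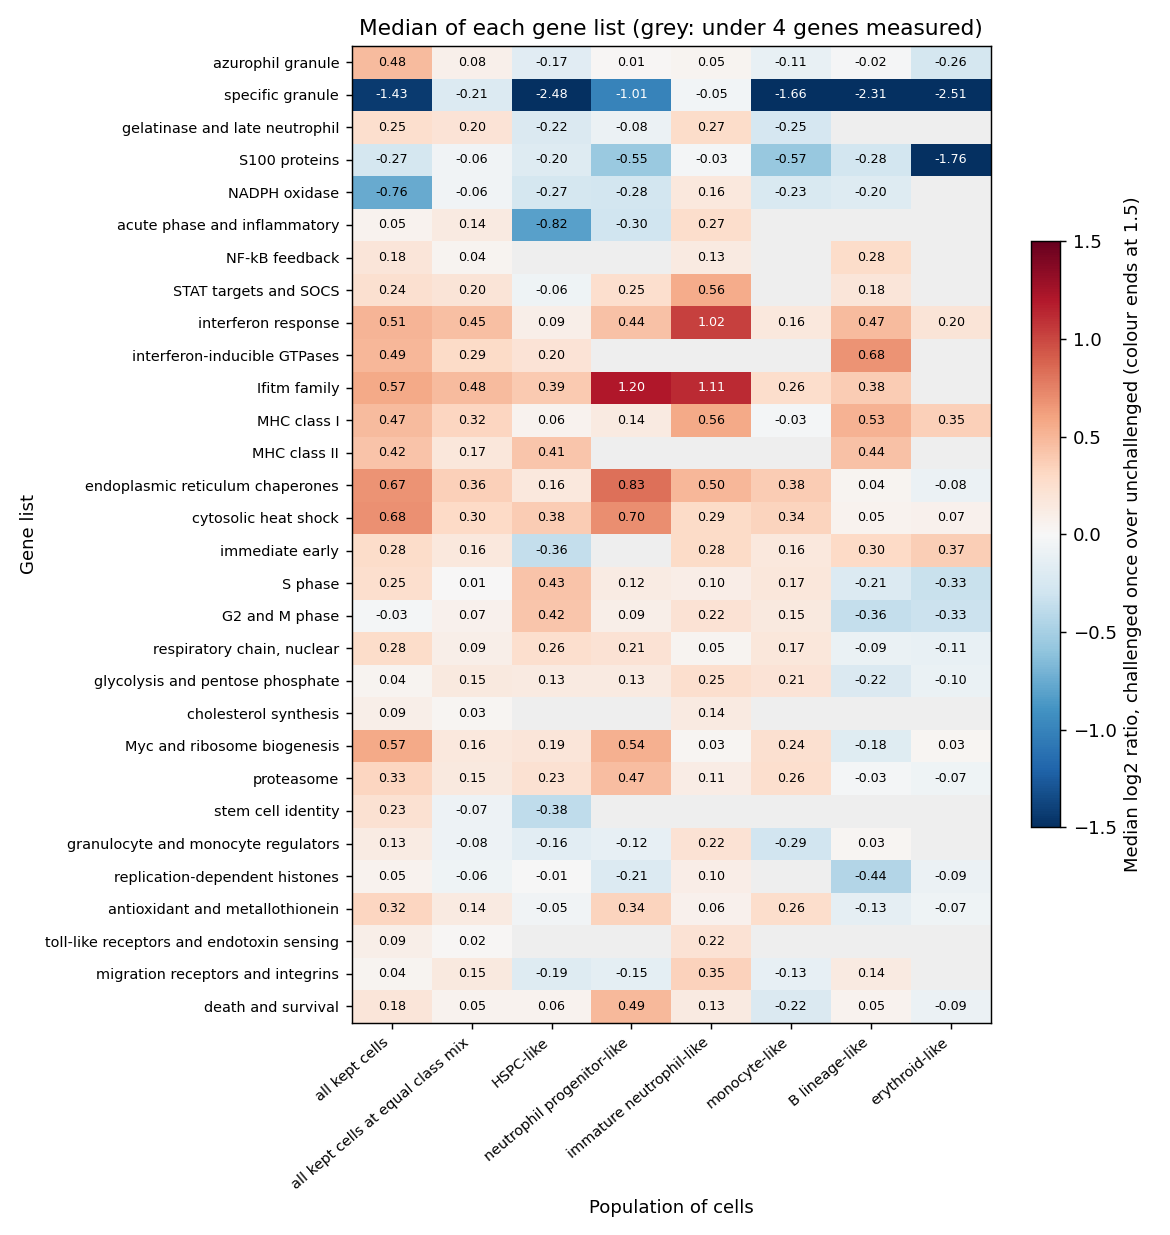
Median log2 ratio of each gene list (rows) by population of cells (columns, colour and printed value), challenged once over unchallenged with 10 CPM added; 1 library each. Specific granule genes are below 0 in every column, with a median of -0.05 in immature neutrophil-like and -1.01 in neutrophil progenitor-like cells.

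Ifitm1 and Mif, which were higher in progenitor-like cells, were also higher in monocyte-like cells, and Ly6a, higher in HSPC-like cells, was also higher in B lineage-like cells. In monocyte-like cells Ifitm1 was at 297 CPM against 85.5, Mif at 1542 CPM against 750.0 and Chchd10, a mitochondrial protein gene, at 163 CPM against 72.6, while Irf8, the factor of monocyte fate, was at 365 CPM against 443. In B lineage-like cells Serpina3f, a serine protease inhibitor gene, was at 78.9 CPM against 18.8, 4.20-fold (2.96 to 6.07) higher, and Ly6a was at 238 CPM against 77.6, 3.07-fold (2.57 to 3.68) higher. Erythroid-like cells had Cela1, an elastase-family gene, at 110.3 CPM against 30.8. In megakaryocyte-like cells, with 15 of 1836 genes (0.817%) higher and 27 (1.47%) lower, Cd69 and the immediate early gene Fosb were at 97.0 CPM against 35.4 and 126 CPM against 61.1, and Ifitm1 was at 906 CPM against 1232. Cd69 and Fosb reached the minimum of 100 UMIs there only through the challenged once library. The same holds for Serpina3f in B lineage-like and Cela1 in erythroid-like cells.

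Basophil or mast-like cells, 128 and 189 in number, had 20 of 699 genes higher (2.86%) and as many lower. Prg2, the major basic protein gene, was at 922 CPM against 295 in them. A UMI of it was found in 5.35% of 187 drawn challenged once cells against 0.787% of 127 unchallenged ones, and in 0.803% of challenged once B lineage-like cells. The Prg2 levels thus rest on very few cells and are not those of the class as a whole. The 9 eosinophil markers, which include Prg2, summed to 1150 against 445 CPM in the class. Whether the cells with Prg2 are of another lineage was not tested. The unnamed cluster 7, in which Prg2 and Cd34 were among the leading genes, had 276 of 2024 genes (13.6%) higher and 66 (3.26%) lower. Its cells had Ifitm1 at 1136 CPM against 259, Mif at 1807 CPM against 816 and Sdf2l1 at 655 CPM against 351.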

How the data were processed

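The authors deposited whole counts of UMIs per gene and cell barcode (10x 3' version 2), made with Cell Ranger 3.0.0 on mm10, per the submitters' processing notes; the annotation counted against is not given in the sources used here. The deposited counts held 31053 genes. Cells, gene lists and markers were chosen with earlier results of these data known. Doublets were called per library with Scrublet in scanpy 1.11.5 (427 and 294 calls, expected rate 6%) and left out of classes only. The 2 libraries were clustered together without correction on 2000 variable genes, 30 principal components and 15 neighbours (leidenalg 0.10.2, resolution 1), with response, cell cycle, histone, respiratory, ribosomal and mitochondrial genes left out. Clusters were named from 14 marker lists at 2-fold over other cells, with at least 3 markers. Within-class ratios and the equal class mix used only classes with at least 50 drawn cells in each library. Ratios were log2 of CPM + 10 for genes with at least 100 drawn UMIs over both libraries, and called at 1.5-fold. Folds carry exact conditional binomial intervals without the added 10, and shares exact Clopper-Pearson intervals. Both cover counting error only, at 95%. Genes named were the 12 highest and lowest over all cells, 4 on each side per class, up to 4 members per list with the largest absolute ratio over all cells, and Kit, Ly6a, Cd34, Mpo, Elane, Camp, Saa3, Cebpb, Csf3r, Gfi1, Irf8 and Hspa5. Other genes, except those leading a cluster or holding a motif, were chosen after their values were seen. The ratio steps were tested on simulated data. Gene positions are on GRCm38. Of 536 list genes, 416 had a promoter window. The rechallenged library was only counted. Values of 1 interferon response gene are not reported here.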

Additional observations from a re-analysis of the deposited data

How the results depend on the processing

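No paired analysis was possible because each group has 1 library. Numbers below are genes 1.5-fold or more higher and lower, then at least 2-fold higher and lower.

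Over all kept cells they were 322, 157, 31 and 42. They were 1137, 294, 107 and 96 with 1 CPM added in place of 10, 63, 299, 15 and 83 with median-of-ratios scaling, 45, 16, 4 and 5 at the same class mix, and 32, 47, 5 and 19 without neutrophil classes. With scaling without granule and S100 genes, chosen after seeing the data, they were 64, 295, 15 and 80. The 2-fold lower number was 71 with draws to 4000 UMIs and 69 without drawing.

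Within classes, at 1.5-fold, 1 CPM added gave 182 and 139 in HSPC-like, 580 higher in progenitor-like, 574 and 83 in immature, 115 and 77 in monocyte-like, 151 and 110 in B lineage-like and 29 and 84 in erythroid-like cells. Median-of-ratios scaling gave 134 and 209 in progenitor-like, 87 and 64 in immature and 50 and 78 in monocyte-like cells. Clustering without granule genes gave 193 and 120 in HSPC-like cells and 244 higher in progenitor-like cells. Without drawing there were 48 higher in HSPC-like cells and 94 and 20 in immature cells. Restricting HSPC-like cells to cluster 3, also chosen after seeing the data, gave 115 and 94.

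Class shares, in percentage points challenged once minus unchallenged, moved as follows. At Leiden resolution 2 they were 6.87 for HSPC-like, 2.24 for monocyte-like and 0.828 for megakaryocyte-like cells. With all variable genes they were 9.32 for HSPC-like and 9.06 for progenitor-like cells, and -0.0323 for megakaryocyte-like cells, which is a reversal. Without granule genes they were 7.33 for HSPC-like, 5.97 for progenitor-like, -29.8 for immature and 2.19 for monocyte-like cells. With at least 1000 UMIs and 500 genes they were -27.0 for immature and 5.03 for monocyte-like cells, and among cells with at least 2000 UMIs 2.32 for mature neutrophil-like and 1.96 for B lineage-like cells.

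The causes of these moves were not tested, other than that 1 CPM adds calls among low genes by its construction. The depth of 2000 UMIs per cell limits what can be said of low transcripts such as Saa3 outside progenitor-like cells, and without replicate libraries no difference can be set against the spread between animals.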

Other observations

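Some cell cycle genes were higher after 1 challenge in cluster 9 of the immature neutrophil-like cells, which is led by the gelatinase granule gene Mmp9 and held 615 unchallenged and 195 challenged once cells. Of 38 G2 and M phase genes, 8 reached 100 UMIs in it, 3 of them (Top2a, Smc4 and Cks1b) only through the challenged once library, so the 8 are not given as a count of calls. Among the others, chosen after their values were seen, Ube2c, a ubiquitin enzyme of mitotic exit, was at 354 CPM against 111, 3.18-fold (2.48 to 4.07) higher, and Cks2, a partner of cyclin-dependent kinases, at 428 CPM against 261. Of all genes measured in cluster 9, 11.1% were higher and 3.33% lower. Over all immature neutrophil-like cells 4 of 38 G2 and M phase genes were higher (median 0.22), beside 4.84% of all genes measured there, and none after median-of-ratios scaling. In the mature neutrophil-like cluster the proliferation marker Mki67 was at 11.1 CPM.

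NF-kB feedback, endotoxin sensing and cholesterol synthesis lists held no gene 1.5-fold apart over all cells. None of 13 NF-kB feedback genes (median 0.18), none of 10 genes of toll-like receptors and endotoxin sensing (median 0.09) and none of 19 cholesterol synthesis genes (median 0.09) was 1.5-fold or more apart. Over all genes the median was 0.17, with 3.31% higher and 1.61% lower, and at these shares lists this short may hold none. Cd14 of the sensing list, at a log2 ratio of 0.554, was just under the limit. After median-of-ratios scaling, with the shift subtracted from the ratio of CPM + 10, 1 NF-kB feedback and 2 sensing genes were lower. These were Tnfaip2, Lbp and Irak3, with log2 ratios of -0.309, -0.302 and -0.295 before it, so they passed the limit only narrowly and through the shift.

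The immunoglobulin genes Igha and Ighg3, left out of the genes named by rule and chosen here after their values were seen, each had drawn UMIs in only 1 library. Igha was among the leading genes of cluster 20, which held 31 unchallenged and 41 challenged once cells. The other constant region genes are not given here, and whether a few cells account for these counts was not tested. Igha, the constant region of IgA, had 456 UMIs in the drawn unchallenged cells and 0 in the challenged once cells, with a UMI in 0.817% of unchallenged cells. Ighg3, that of IgG3, had 0 and 380 UMIs, with a UMI in 0.339% of challenged once cells. A count of 0 allows a level of up to 0.170 CPM in the unchallenged and 0.188 CPM in the challenged once library.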
